A study of Mus musculus with 2 samples.

Results

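The 10 genes H19, Igf2, Igf2r, Airn, Peg3, Kcnq1ot1, Snrpn, Meg3, Dlk1 and Plagl1 were examined for DNase I hypersensitive sites (DHS), which are stretches of accessible DNA that the enzyme DNase I cuts readily. They were chosen by name as textbook imprinted genes, out of 37252 annotated genes, by a rule that uses no measured value. Earlier results of these data were known when they were chosen. A DHS was assigned to a gene when it overlapped the gene or the 20 kb on either side. In all, 21 of the 47542 DHS of the series were assigned in this way. The cells were primary B cells from the spleens of C57/Bl6 mice aged 8 weeks, with the genotype Trp53+/+ and a mock treatment, and were enriched by magnetic selection for the surface marker B220. The series has 1 DNaseI library and 1 input library of the same genotype and treatment, and only the first gave a list of DHS. There are no replicates, so every comparison is a description of 1 library, and the list keeps no read counts, so its depth is unknown. A missing DHS means that none was called.

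Imprinted genes are transcribed mainly from the copy inherited from 1 parent. Most lie in clusters run by an imprinting control region, a CpG-rich stretch of DNA that carries DNA methylation on only 1 parental copy. Methylation of that copy is kept through cell division, with the help of the zinc-finger protein ZFP57, which binds methylated copies of the hexamer TGCCGC, and of its partner TRIM28. At H19 the unmethylated maternal copy binds the insulator protein CTCF, whereas at Airn and Kcnq1ot1 the control region is the promoter of a long noncoding RNA that silences neighbouring genes in cis. The reads of the parental copies were not separated in the list, so each DHS stands for the sum of both.

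The B cell identity of the sample was checked first. All 10 of 10 B cell marker genes, among them Pax5, Ms4a1 and Cd79a, had a DHS at their promoter, defined as 5 kb upstream to 2 kb downstream of an annotated start. Of the T cell markers, 1 of 8 had one, namely Cd5, which some B cells also carry. A promoter DHS was also found at 4 of 8 myeloid markers (Itgam, Cd14, Elane and Emr1, scores from 18.2 to 51.1) and at 3 of 8 erythroid markers (among them Klf1, with a score of 178, and Tal1, with 40.5). These shares, 50% and 37.5%, lie about where all genes do (57.0% of protein-coding, 42.6% of all annotated and 35.4% of protein-coding genes without a CpG-rich promoter), and the part of other cells in the results was not tested. The score is the authors' own value for a peak; over all DHS it ran from 5.05 to 619 with a median of 32.65.

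Sequences are shown for the control regions, since a regulator's binding word can be read there letter by letter, with or without a DHS over it. Coordinates are on mouse build mm9 and the strand is that of the gene. The H19 control region, intergenic and 2 to 4.5 kb upstream of the gene, held 4 copies of a CTCF word (CCGC, any 2 bases, GG, any 1 base and GGCAG), none with a mismatch. They are shown in capitals with 20 bases on either side, nearest to H19 first, on the minus strand of chr7:149766194-149766247, chr7:149766649-149766702, chr7:149767675-149767728 and chr7:149767919-149767972.
H19 CTCF word 1: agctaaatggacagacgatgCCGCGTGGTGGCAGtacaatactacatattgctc
H19 CTCF word 2: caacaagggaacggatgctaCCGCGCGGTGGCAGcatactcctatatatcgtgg
H19 CTCF word 3: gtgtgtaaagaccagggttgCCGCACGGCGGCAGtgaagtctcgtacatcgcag
H19 CTCF word 4: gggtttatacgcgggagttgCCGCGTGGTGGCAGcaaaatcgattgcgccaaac
Words 1 and 2 lay inside the H19 DHS, and words 3 and 4 lay upstream of it, outside any DHS.

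The next sequences come from the control regions with a DHS at a noncoding RNA promoter. The central 300 bases of the DHS over the Airn start are given on the plus strand of chr17:12934214-12934513, which covers the first exons of Airn isoforms and an intron of Igf2r, with the ZFP57 word in capitals (GCGGCA is TGCCGC read on the other strand).
Airn DHS centre: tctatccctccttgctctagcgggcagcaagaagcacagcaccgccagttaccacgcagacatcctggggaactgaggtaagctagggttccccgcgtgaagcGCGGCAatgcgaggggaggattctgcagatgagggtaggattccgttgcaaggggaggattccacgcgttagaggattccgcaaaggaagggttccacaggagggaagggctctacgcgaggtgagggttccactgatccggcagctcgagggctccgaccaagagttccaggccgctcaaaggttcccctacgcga
For Kcnq1ot1, the RefSeq promoter, from 250 bases before to 50 bases after the start, matched mm9 exactly 1 time, on the minus strand of chr7:150482403-150482702 inside an intron of Kcnq1. CpG dinucleotides are in capitals, and they lie mostly in the last stretch before and after the start.
Kcnq1ot1 promoter: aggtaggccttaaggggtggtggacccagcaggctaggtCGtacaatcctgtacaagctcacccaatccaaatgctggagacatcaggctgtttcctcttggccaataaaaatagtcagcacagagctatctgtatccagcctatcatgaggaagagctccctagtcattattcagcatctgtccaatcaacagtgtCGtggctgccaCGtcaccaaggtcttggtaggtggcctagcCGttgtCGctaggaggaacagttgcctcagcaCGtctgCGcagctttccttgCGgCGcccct
Farther into the transcript, on the minus strand of chr7:150481564-150481661, 3 ZFP57 words stood close together inside the stronger Kcnq1ot1 DHS.
Kcnq1ot1 ZFP57 words: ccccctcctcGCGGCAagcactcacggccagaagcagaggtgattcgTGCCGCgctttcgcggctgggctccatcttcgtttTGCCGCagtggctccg

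The last sequences come from control regions where no DHS was called. In the Peg3 intron just downstream of the start, on the minus strand of chr7:6682162-6682439, capitals mark ZFP57 words and the word AANATGGC of YY1, a zinc-finger factor with known sites at Peg3 (GCCATCTT is that word on the other strand).
Peg3 words: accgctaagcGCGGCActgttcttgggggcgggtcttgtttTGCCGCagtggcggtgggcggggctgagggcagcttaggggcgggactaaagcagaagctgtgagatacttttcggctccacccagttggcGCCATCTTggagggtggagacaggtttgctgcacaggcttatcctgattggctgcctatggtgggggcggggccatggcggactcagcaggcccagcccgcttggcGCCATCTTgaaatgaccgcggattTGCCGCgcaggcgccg
In the intergenic control region between Dlk1 and Meg3, on the plus strand of chr12:110766496-110766664, 5 ZFP57 words followed each other.
Meg3 ZFP57 words: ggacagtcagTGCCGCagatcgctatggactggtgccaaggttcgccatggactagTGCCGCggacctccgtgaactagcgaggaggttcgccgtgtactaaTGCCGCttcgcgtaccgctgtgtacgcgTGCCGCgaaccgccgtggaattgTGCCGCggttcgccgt
At Snrpn, the 250 bases upstream of the start, on the minus strand of chr7:67150043-67150292, are shown before a stretch of the gene's intron on the minus strand of chr7:67149232-67149531, with ZFP57 words in capitals.
Snrpn upstream: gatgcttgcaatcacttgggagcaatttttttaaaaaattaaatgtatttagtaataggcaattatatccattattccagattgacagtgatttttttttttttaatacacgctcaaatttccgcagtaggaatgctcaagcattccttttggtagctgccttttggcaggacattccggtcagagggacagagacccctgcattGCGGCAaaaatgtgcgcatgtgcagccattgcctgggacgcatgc
Snrpn downstream: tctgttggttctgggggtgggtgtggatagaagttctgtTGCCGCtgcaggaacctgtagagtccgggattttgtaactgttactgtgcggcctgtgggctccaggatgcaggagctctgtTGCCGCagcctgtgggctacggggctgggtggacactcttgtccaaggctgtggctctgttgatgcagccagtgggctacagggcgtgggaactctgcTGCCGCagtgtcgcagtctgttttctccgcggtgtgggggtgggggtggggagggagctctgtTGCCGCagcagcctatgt

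A promoter DHS was called at 5 of the 10 imprinted genes (50%, exact 95% binomial interval 18.7 to 81.3%): H19, Igf2r, Kcnq1ot1, Airn and Plagl1. No promoter DHS was called at Igf2, Peg3, Snrpn, Meg3 or Dlk1. Over all protein-coding genes the share was 57.0%, and over all annotated genes 42.6%, both inside that interval. A DHS in the gene or within 20 kb was called at 7 of the 10 genes (70%, 34.8 to 93.3%), against 70.9% of protein-coding and 59.3% of all annotated genes. Peg3, Snrpn and Meg3 had none there. These counts lay near the background, but they depend on the distance allowed. Within the gene body alone 2 of 10 genes held a DHS (20%, interval 2.52 to 55.6%), against 57.9% of coding genes. Kcnq1ot1 has no gene model and was counted by its start alone, although a DHS began 74 bp inside its transcript. With it the count would be 3 of 10, whose interval of 6.67 to 65.2% holds the 57.9%. Within 1 kb of a start 3 of 10 genes (30%) had a DHS, against 53.7%. With DHS at or above the median score, 3 of 10 had a promoter DHS, against 50.3%.

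Promoters were also read by their CpG class. CpG-rich here means at least 55% GC and a ratio of observed to expected CpG of 0.6 or more in the 1000 bp around the start. By this rule, 85.1% of CpG-rich protein-coding promoters had a DHS, against 35.4% of the others. Of the 5 CpG-rich genes, Igf2, Igf2r, Peg3, Dlk1 and Plagl1, 2 had a promoter DHS, and of the other 5 genes 3 had one. The start itself was covered by a DHS at 67.9% of CpG-rich coding genes, and among the 5 only at Igf2r. Conversely, 12.7% of CpG-rich coding genes had no DHS within 20 kb of the start, and among the 5 this was so at Peg3. The highest promoter DHS of the 5 imprinted genes that had one scored 76.0 at H19, 38.3 at Igf2r, 35.9 at Kcnq1ot1, 30.7 at Airn and 25.2 at Plagl1. Their median of 35.9 compares with 101 over all protein-coding genes with a promoter DHS (quartiles 59.0 and 152), and only H19 reached that lower quartile. Over coding genes without a CpG-rich promoter, the class nearer to H19, Airn and Kcnq1ot1, the median was 75.5 and the lower quartile 38.7. H19 lay just above that median, while Airn and Kcnq1ot1 did not reach that lower quartile. Over CpG-rich coding genes the median was 114 and the lower quartile 74.8, which Igf2r and Plagl1 did not reach.

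**Figure D1:**
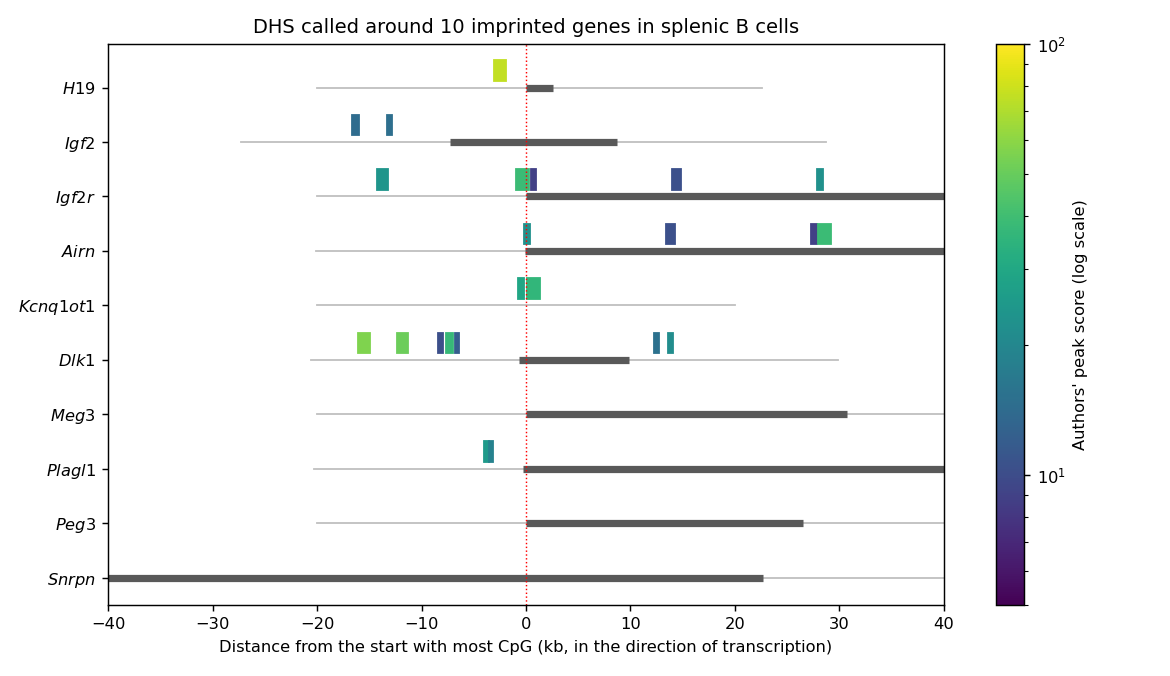
DHS around the start of each imprinted gene, with the distance from the annotated start with most CpG on the x axis (kb, in the direction of transcription), dark bars for gene bodies and thin lines for the 20 kb on either side. Each coloured box is a DHS, coloured by the authors' score on a log scale; DHS of Airn beyond 40 kb are not drawn. A DHS covers the start at Igf2r and Airn, DHS flank it at Kcnq1ot1, the 7 DHS of Dlk1 all lie outside the gene, and the lines of Meg3, Peg3 and Snrpn carry none.

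H19 encodes a noncoding RNA, and Igf2 a fetal growth factor; the pair shares a control region and enhancers and is transcribed from opposite parental copies. H19, at chr7:149761434-149764048 on the minus strand, had 1 DHS in its window, at chr7:149765913-149767051. It was 1139 bp wide, was centred 2434 bp upstream of the start and scored 76.0, the highest of the 21 DHS and above 77.1% of all DHS. It is intergenic, is also within the promoter distance of Mir675, whose microRNA is processed from the H19 RNA, and covered 40.1% of the control region. At the H19 start itself no DHS was called. Of the 4 CTCF words shown above, those at 2173 and 2628 bp upstream of the gene lay in the DHS and those at 3654 and 3898 bp did not. In windows placed the same way at all 22350 protein-coding genes, 15 (0.0671%) held at least 1 CTCF word without a mismatch and 0 held 4 or more. This word is itself known from the H19 repeats, so its perfect matches there follow from the choice of word and are a description. Among all DHS, 100 (0.211%) held such a word and 2 held at least 2, the H19 DHS among them.

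Igf2, at chr7:149836673-149852721, had no promoter DHS. The 2 DHS in its window were intergenic and of low score, at chr7:149858309-149858705 (14.7, above 16.7% of all DHS) and at chr7:149861373-149862047 (14.2, above 15.5%). The first was centred 5786 bp upstream of the outermost Igf2 start, and the second was nearer to the start of Ins2, which encodes insulin. From the Igf2 start with most CpG the nearest DHS was 12.9 kb away, and 13.9% of CpG-rich coding genes had theirs farther. From H19 to Ins2, over 124 kb, 3 DHS were called, the 3 named here, and the longest stretch without one was 91.3 kb.

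Igf2r encodes a receptor that takes up and clears insulin-like growth factor 2, and Airn a noncoding RNA that starts in an Igf2r intron and is transcribed against it. Igf2r lies at chr17:12875272-12962530 on the minus strand and Airn at chr17:12934177-13052988 on the plus strand, so their windows shared 5 DHS. Over the Igf2r start a DHS of 1298 bp was called at chr17:12962216-12963513, with a score of 38.3, above 56.0% of all DHS, and it also lies over an annotated 7SK RNA copy. A second DHS of 8.94 lay 443 bp inside the gene, among the lowest 2.61% of all DHS. Over the Airn start the DHS at chr17:12934105-12934621 was 517 bp wide and scored 22.6, above 35.2% of all DHS, and it covered 25.8% of the 2001 bp control window. Both starts, which drive transcripts on opposite parental copies in many mouse tissues, were therefore covered by a DHS in this library, with the lower score at Airn.

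Further DHS in these windows were weaker or farther away. At chr17:12947640-12948507 a DHS of 10.4 lay within 5 kb upstream of an internal Igf2r start, and at chr17:12975727-12976820, upstream of Igf2r and inside Airn, a DHS scored 23.8. The highest-scoring promoter DHS of Airn, 30.7 at chr17:13002930-13003838, was centred 5413 bp upstream of an internal Airn start and reached within 5 kb of it. This DHS, the source of the Airn value of 30.7 above, was 68666 bp from the main start. Another of 16.6, at chr17:13072828-13073178, lay past the end of Airn. The neighbours Slc22a2 and Slc22a3, transporter genes silenced with Igf2r in the placenta, had no promoter DHS, and from Igf2r to Slc22a3 the 4 DHS lay in Igf2r or over its start, leaving a stretch of 321 kb without any.

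Kcnq1ot1, a noncoding RNA transcribed from the minus strand of an intron of the potassium channel gene Kcnq1, had DHS on either side of its start at chr7:150482452. The stronger, at chr7:150481087-150482378, was 1292 bp wide and scored 35.9, above 53.6% of all DHS, and its near edge was 74 bp inside the transcript. The weaker, at chr7:150482688-150483185, was 498 bp wide, scored 29.6 and began 236 bp upstream. The 309 bp between them, which hold the start and lie within the promoter sequence shown above for most of their length, were not called. Together the DHS covered 71.2% of the control window, the largest share of the 7 control regions. The downstream DHS had a CpG ratio of 0.818 and 82 CpG and held the 3 ZFP57 words, while the upstream DHS had a ratio of 0.102 and 3 CpG. Only the 20 kb on either side of the start was examined for Kcnq1ot1, since the annotation holds no model of the RNA, but across the 320 kb of Kcnq1, which hosts it, 1 more DHS was called, of score 16.7, and the promoter of Kcnq1 had none.

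The cluster around Kcnq1ot1 held the most DHS of the 6 imprinted domains, 20 in 536 kb from Ascl2 to Phlda2, or 3.73 per 100 kb against 1.80 per 100 kb over chromosomes 1 to 19 and X. That average includes DNA far from genes, and the windows of protein-coding genes had a median of 3.35 per 100 kb (upper quartile 7.62). The 20 DHS of the domain were not spread evenly. In all, 13 lay more than 200 kb away from the Kcnq1ot1 start, on the side of Tspan32, Cd81 and Tssc4, and reached 223. Tspan32 (222) and Cd81 (219), which encode tetraspanins of the cell surface, and Tssc4 (159) had promoter DHS above the upper quartile of all coding genes. The DHS of 222 lay inside Tspan32, centred 162 bp from a start of Gm15024. The DHS over the Tspan32 start itself scored 94.6, below the median of 101 over coding genes with a promoter DHS. On the other side, the DHS at Cdkn1c (24.4), which encodes a cell cycle inhibitor, and at Phlda2 (20.9), which restrains placental growth, were low. Nap1l4 (150), next to Phlda2, and Osbpl5 (68.8), beyond Nap1l4, scored higher. The longest stretch without a DHS was 163 kb, between Kcnq1ot1 and Cdkn1c.

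**Figure D2:**
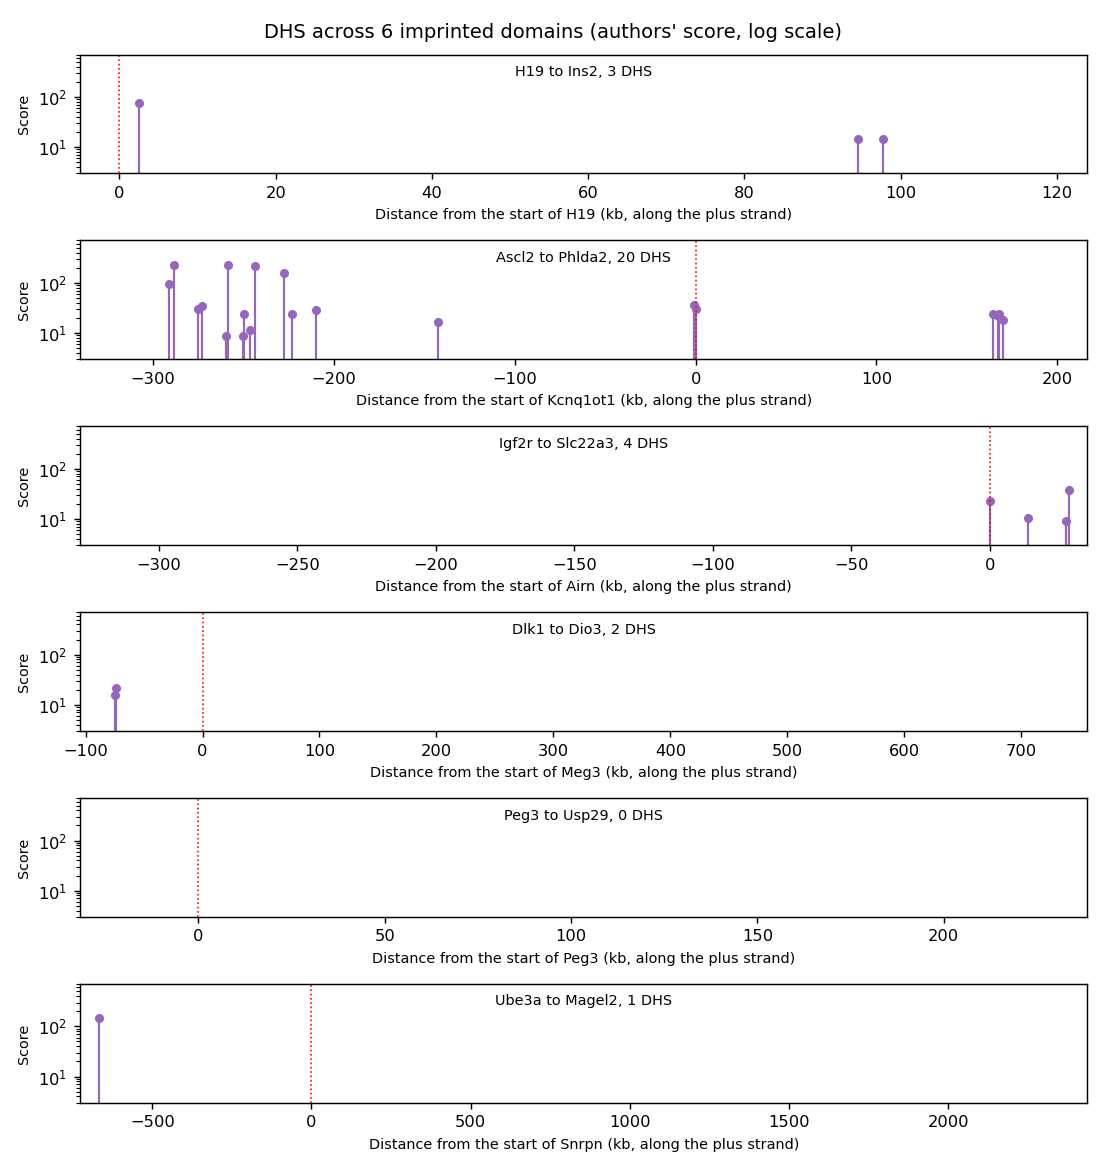
DHS across the 6 imprinted domains, each named by its first and last gene, with the distance from the start of the domain's noncoding RNA or paternally expressed gene on the x axis (kb, along the plus strand) and the authors' score on a log y axis. Each stem is a DHS and the dotted line marks the start. The Kcnq1ot1 domain has 20 DHS with the high scores at its left end, Peg3 to Usp29 has 0, and Ube3a to Magel2 has 1, at the Ube3a end.

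Dlk1, which encodes a transmembrane ligand related to those of Notch, and Meg3, a noncoding RNA from the other parental copy, share a control region between them. Dlk1, at chr12:110691033-110701546, had no promoter DHS but 7 distal ones, or 13.9 per 100 kb of window, a density exceeded by 7.63% of protein-coding genes. Of these, 5 lay upstream of the gene. Their scores, from the farthest to the nearest, were 56.1, 50.9, 10.3, 37.3 and 12.05. The strongest, at chr12:110675560-110676699, was centred 14904 bp upstream of the outermost start, and the next, at chr12:110679274-110680346, was centred 11223 bp upstream. The nearest ended 6.41 kb from the start with most CpG. The remaining DHS, of 15.3 and 21.5, lay downstream, between Dlk1 and Meg3. All 7 were nearer to a start of Dlk1 than to that of any other annotated gene.

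Meg3, at chr12:110779211-110809936, had no DHS in its window of 70.7 kb, its control region included. The nearest upstream was 73.5 kb away, the last of the Dlk1 group, and 22.5% of all coding genes and 7.95% of CpG-rich ones had theirs farther, Meg3 itself not being CpG-rich. Downstream the next was 833 kb away, past Rtl1, Rian, Mirg and Dio3, none of which had a promoter DHS. Between Dlk1 and Dio3, 828 kb held 2 DHS. The DNA of the control region is CpG-dense in places and held 10 ZFP57 words, a number reached in 6 of 22350 windows at the same distance from protein-coding genes (0.0268%).

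Plagl1 encodes a zinc-finger transcription factor and is transcribed from a CpG-rich start that is its control region. Plagl1 lies at chr10:12810497-12851500 on the plus strand. Its DHS were short, low and close together, at chr10:12806795-12807175 (25.2, above 39.9% of all DHS) and chr10:12807235-12807600 (18.7, above 27.2%). They were centred 3512 and 3080 bp upstream of the outermost start, and the first had 1 CpG and the second 8, with observed to expected ratios of 0.0788 and 0.583. The start was not covered, and the window of 1 kb on either side, with 112 CpG the second richest of the 7 in number, held 6 ZFP57 words and no DHS. Of the first of these DHS, 31.1% of the 31-base words occur elsewhere in the assembly, against 0% of the second.

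Peg3 encodes a zinc-finger protein and is transcribed from the paternal copy. From Peg3, at chr7:6656603-6683132, no DHS was called within 296 kb on the downstream side or 390 kb on the upstream side, where the next scored 300. Among CpG-rich coding genes 3.02% were farther from their nearest DHS, and among all coding genes 10.9%. The 260 kb from Peg3 to Usp29 had 0 DHS, and neither Usp29 nor Zim1, on the other side of Peg3, had a promoter DHS. The control window held 6 ZFP57 words, a number reached in 121 of 22350 windows (0.541%), and 2 YY1 words.

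Snrpn, which encodes a protein of the small nuclear ribonucleoproteins of splicing, lies at chr7:67127388-67285105 on the minus strand and had no DHS in its window of 198 kb. The nearest was 665 kb away, at the promoter of the ubiquitin ligase gene Ube3a (150), and on the other side the next was 3747 kb away. Of all coding genes, 5.24% were farther from a DHS. Snrpn is not CpG-rich, and among coding genes that are not, the 95th percentile of the distance was 1032 kb. In the 3042 kb from Ube3a to Magel2 the DHS of Ube3a was the only one, and Ndn, Magel2, Mkrn3 and Peg12 had no promoter DHS. Of this domain, 32.9% of the 31-base words occur more than 1 time in the assembly and 1.64% of the bases are unsequenced, and the part of repeats in the result was not tested. At the Snrpn control window itself the repeated share was 1.98%, while 487 CpG-rich starts had a median of 0.406%, their upper quartile being 2.61%. This window held 10 ZFP57 words, a number reached in 5 of 22350 windows (0.0224%).

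Set side by side, 3 of the 7 control regions had a DHS (42.9%, exact 95% binomial interval 9.90 to 81.6%), those of H19, Airn and Kcnq1ot1. A DHS within 1 kb of the start was called at 83.0% of CpG-rich coding genes, just above that interval, although of the 7 regions only those of Plagl1 and Peg3 lie at a start that meets the CpG-rich rule. The control regions without a DHS, at Plagl1, Peg3, Snrpn and Meg3, held 6, 6, 10 and 10 ZFP57 words, and those with a DHS held 5 at H19, 7 at Airn and 3 at Kcnq1ot1. Since the windows differ in length, the words per kb were 3.0 at Plagl1 and Peg3, 5.0 at Snrpn and 1.7 at Meg3, and 2.0 at H19, 3.5 at Airn and 1.5 at Kcnq1ot1. The ranges overlap. Of the words in regions with a DHS, 2 at H19, 1 at Airn and all 3 at Kcnq1ot1 lay inside it. At least 6 words, as at Airn, Plagl1 and Peg3, were found in 121 of 22350 start windows of coding genes (0.541%). At least 4, fewer than the 5 at H19, were found in 44 of 22350 windows placed as at H19 (0.197%). At least 4, more than the 3 at Kcnq1ot1, were found in 715 start windows (3.20%). Uncommon counts thus occurred in regions with a DHS, at Airn and H19, as well as in those without. ZFP57 is known to act at control regions, so high counts there follow in part from the choice of word and are a description. The word holds a CpG, and the comparison windows were not matched for CpG. The start windows of coding genes also include those of Peg3, Plagl1 and Snrpn. The CpG number of the windows ran from 47 at Snrpn to 149 in the longer Meg3 window. Repeated sequence took 0 to 2.41% of the 7 regions.

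**Figure D3:**
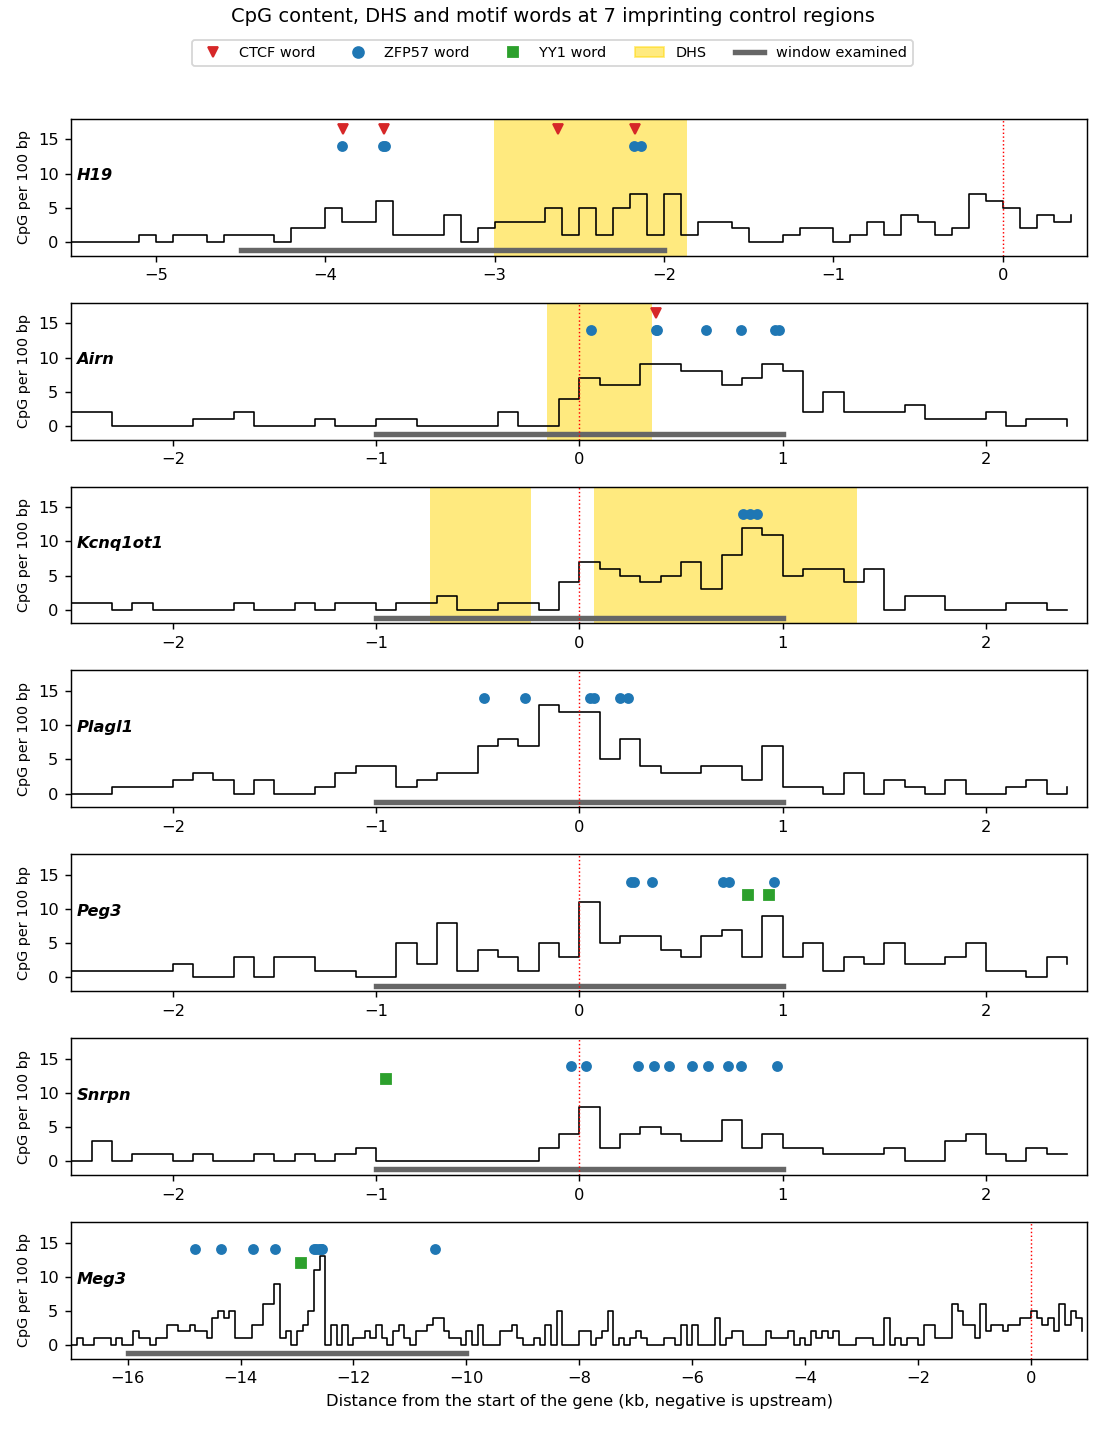
CpG dinucleotides per 100 bp (black line, y axis) against the distance from the start of the gene (kb, negative upstream) at 7 control regions, with DHS shaded, the window examined as a grey bar and binding words as symbols. The words are shown for the examined windows only. DHS overlap the windows of H19, Airn and Kcnq1ot1, and the windows of Plagl1, Peg3, Snrpn and Meg3 have ZFP57 words but no shading.

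Binding words were also counted over the 21 DHS. The CTCF word, with at most 1 mismatch, was in 1 of 21 (4.76%) against 4.88% of all DHS, the ZFP57 word in 5 of 21 (23.8%) against 20.5%, and the YY1 word in 1 of 21 (4.76%) against 14.4%. The exact 95% intervals were 0.120 to 23.8%, 8.22 to 47.2% and 0.120 to 23.8%, and each holds the share over all DHS. Both strands were searched, and 2.18% of the ZFP57 words in all DHS overlapped a CTCF word. In the H19 control region 4 of the 5 ZFP57 words did, including 1 of the 2 in the DHS, and in that of Airn 2 of the 7 did, so the counts of these words are not separate there. A word is a match of letters and no measure of binding.

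Beyond the 10 genes, their neighbours in the same clusters were examined. Of 25 such neighbours in the annotation, 8 had a promoter DHS (32%, interval 14.9 to 53.5%), against 57.0% of all coding genes, above that interval, and 42.6% of all annotated genes, inside it. The list holds the noncoding genes Rian and Mirg, neither with a promoter DHS, so it is not fully like the coding genes. By class, 6 of its 11 CpG-rich promoters had a DHS (54.5%, against 85.1% of coding genes of that class) and 2 of the other 14 (against 35.4%). They were Tspan32, Cd81, Tssc4, Ube3a, Nap1l4, Osbpl5, Cdkn1c and Phlda2. Those without were Ins2, Th, Ascl2, Kcnq1, Slc22a18, Slc22a2, Slc22a3, Usp29, Zim1, Ndn, Magel2, Mkrn3, Peg12, Rtl1, Rian, Mirg and Dio3. Snurf, Zfp264 and Zim3 were not matched by name and not analysed here. Imprinted genes of other loci had a promoter DHS in 18 of 28 cases (64.3%, interval 44.1 to 81.4%), against 57.0% of coding genes, inside the interval, and 42.6% of all annotated genes, just below it. The highest were Herc3 (195), Blcap (171), Commd1 and Zrsr1, which share 1 DHS (147), and Inpp5f (112), while Mest, which is transcribed from the paternal copy, had the lowest at 12.5. Over the 3 lists together 31 of 63 genes (49.2%) had one, and of those with a CpG-rich promoter 21 of 34 (61.8%), against 85.1%, while of the others 10 of 29 had one, against 35.4%. Genes of a cluster are not independent.

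**Figure D4:**
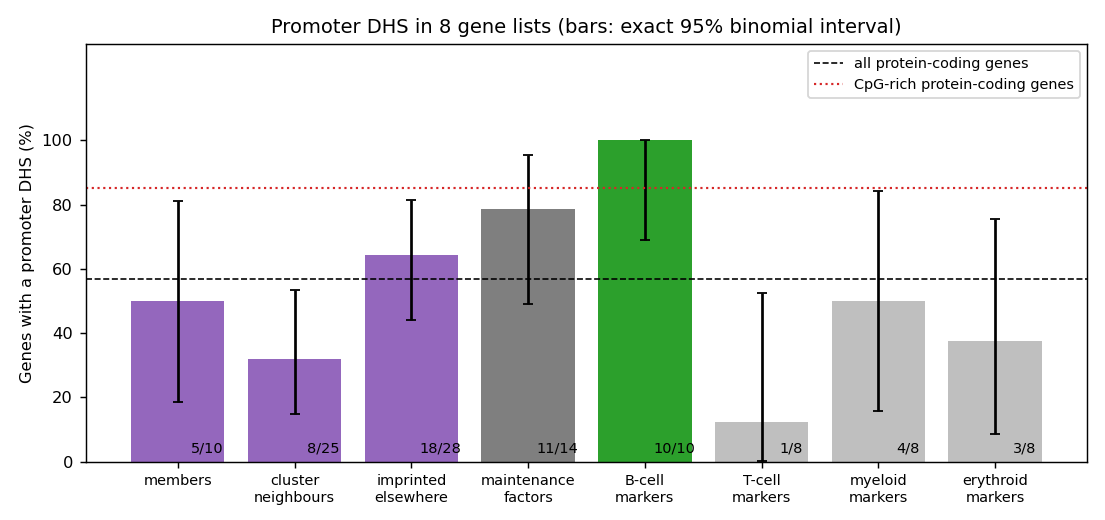
Share of genes with a promoter DHS (y axis, percent) in the imprinted genes, their neighbours, other imprinted genes, maintenance factors and markers of 4 cell types, with exact 95% binomial intervals that cover counting error only. The dashed line is the share of all protein-coding genes (57.0%) and the dotted line that of CpG-rich ones (85.1%). The interval of the cluster neighbours (8/25) lies below the dashed line, but it holds the 42.6% of all annotated genes, which is not drawn.

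Genes whose products keep imprints were listed too. A promoter DHS was called at 11 of 14 (78.6%, interval 49.2 to 95.3%), and the interval holds both the 57.0% of all coding genes and the 85.1% of CpG-rich ones, the class of 10 of the 14. The scores were highest at Yy1 (326), Arid4a (210), Trim28 (179), Arid4b (169) and Ctcf (158). Those without were Zfp57, Dppa3 and Ctcfl, which are known mainly from germ cells and early embryos, but Dnmt3l, of which the same holds, had one of 49.75. The median score over the 11 was 128, over the 8 neighbours with a promoter DHS 150, over the 18 imprinted genes of other loci 74.5, and over H19, Igf2r, Kcnq1ot1, Airn and Plagl1 35.9.

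**Figure D5:**
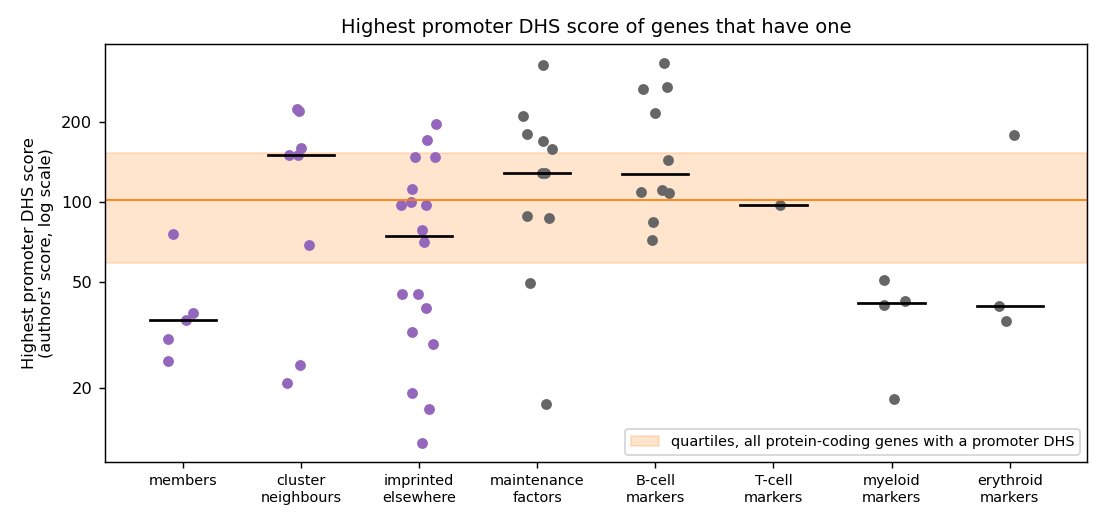
Highest promoter DHS score (authors' score, log y axis) of each gene that has one, by list; points are genes, black bars medians, and the band the quartiles of all protein-coding genes with a promoter DHS (59.0 to 152) around their median of 101. The 5 imprinted genes lie from 25.2 to 76.0, with 4 of them below the band.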

How the data were processed

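DNase I digests of splenic B cell nuclei were made at several enzyme concentrations, and the one that gave the cleanest signal by qPCR was sequenced. Per the submitters' processing notes, BWA 0.6.2, SAMtools and build mm9 were used. The authors called peaks with MACS, and the deposited list gives each peak a position and a score. The version, threshold and control of the caller and the scale of the score are not given in the sources used here for the DNaseI library (MACS settings are stated for ChIP-seq and were not assumed to apply), so scores were only ranked within the list. The input library was not analysed here.

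Peaks were placed on the annotation of GENCODE release M1 with Python 3.11.15, pandas 2.3.3, numpy 2.4.6, scipy 1.17.1 and pyfaidx 0.9.0.4, on chromosomes 1 to 19 and X, with an overlap of at least 1 bp and positions counted from 1. Sequences were read from the same assembly (NCBI build 37). RefSeq promoters (build GRCm38.p6) matched 9 of the 10 genes by symbol. That of Kcnq1ot1, which has no gene model in release M1, was found in mm9 by its exact sequence. The control regions were set from textbook knowledge as 1 kb on either side of the start with most CpG for Airn, Peg3, Kcnq1ot1, Snrpn and Plagl1, 2 to 4.5 kb upstream for H19 and 10 to 16 kb upstream for Meg3. The named genes are the 10 members, all cluster neighbours, of other lists the 5 with the highest score and, where fewer than 6 lack a DHS, those without, and genes whose promoter holds a DHS of a member's window; the lowest of the other imprinted genes and the marker genes were named after their values were seen, and some marker genes are not reported here by name. The members and gene lists were chosen with earlier results of these data known. Without replicates no test was made. Intervals are exact, at the 95% level, and cover counting error only. Alternatives were a minimum at the median score, other windows, the peak centre or the outermost start, merged peaks, and stricter word searches.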

Additional observations from a re-analysis of the deposited data

How the results depend on the processing

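Of the 34 alternative values computed, 27 stayed within the counting interval of the value reported and 7 did not. Such intervals are wide for lists this small, for example 18.7 to 81.3% for 5 of 10 genes. Staying within one therefore says little about stability. With the gene body alone, 2 of 10 imprinted genes (20%, against 57.9% of coding genes), Igf2r and Airn, held a DHS. Kcnq1ot1 has no body in the annotation and entered by its start alone, so its DHS inside the transcript could not count. With gene bodies alone the density was 1.30 DHS per 100 kb, below the 1.80 of chromosomes 1 to 19 and X, while the reported 2.55 is above it. Keeping only DHS at or above the median score, the density was 0.729 per 100 kb, also below its background of 0.900. The ZFP57 word was then in 66.7% of the DHS left (4 of 6, against 31.7% of all such DHS) and the YY1 word in 0% (against 19.9%). In the central 300 bp of the DHS, the CTCF word was in 0% (against 2.25%) and the YY1 word in 0% (against 5.15%). A promoter DHS remained at 3 of 10 genes (30%) with the score minimum (H19, Igf2r and Kcnq1ot1, against 50.3% of coding genes) and also with 1 kb on either side of the start (Airn, Igf2r and Kcnq1ot1, against 53.7%). Under the score minimum the control regions of H19 and Kcnq1ot1 kept a DHS (28.6%, against 76.2% of CpG-rich coding starts). The cause of these shifts was not tested. No paired analysis was possible because only 1 of the libraries, the DNaseI library, gave values. With unknown depth, no DHS can be called absent, and DHS of low score are the least certain.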

Other observations

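In base composition the 21 DHS of the imprinted genes resembled the list as a whole. Their median GC content was 49.7%, against 49.3% over all DHS, and their median observed to expected CpG ratio was 0.346, against 0.288. They were narrower, with a median of 517 bp against 760 bp, and scored lower, with a median of 22.6 against 32.65; 6 of the 21 were at or above the latter. Merged, the windows of the 10 genes span 823 kb and held 2.55 DHS per 100 kb (exact Poisson interval 1.58 to 3.90), against 1.80 over chromosomes 1 to 19 and X, and 7 of the 21 lay around Dlk1. Per gene, the median density of such windows was 3.02 over the 10 genes, 3.35 over protein-coding genes and 2.32 over all annotated genes.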
